A study of Homo sapiens with 4 samples.

Results

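The genes of chromosome 2p23 to 2p22 are a run of protein-coding neighbours on the short arm of chromosome 2, from DTNB on the side of the telomere to BIRC6 on the side of the centromere. The list holds 48 genes and was selected on the values themselves, because neighbours in this stretch were raised together in PZT-2, so their difference between the cell lines is described here and not tested. Of the 48 members, 44 have counts, out of 15220 genes with counts in all. DPYSL5, KRTCAP3, LBH and GALNT14 have no counts in the table used and are not analysed here. BRE is carried in the table under its newer symbol BABAM2 and was counted as a member.

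RNA-seq was done on PANC-1, an established human cell line of pancreatic ductal adenocarcinoma, and on PZT-2, 1 clone made from it in which the histone variant H2A.Z was depleted. PZT-2 cells carry lentiviral short hairpin RNAs, 1 against H2AFZ, which encodes the isoform H2A.Z.1, and 1 against H2AFV, which encodes both forms of H2A.Z.2, and were selected with puromycin, whereas the PANC-1 cells were not transduced. Both were kept in DMEM with 10% FBS. The paper also sequenced PANC-1 cells with a scrambled hairpin and reports similar differentially expressed genes when PZT-2 is set against them. Those cells are not among the libraries used here. PANC-1 and PZT-2 have 2 libraries each, described in the study as biological replicates. The p-values weigh the difference between these cell lines against the spread between libraries within a line. With 1 clone, an effect of the hairpins and a property of this clone cannot be told apart.

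Genes that lie next to each other on a chromosome usually do separate jobs in the cell, and they can share a promoter region, a stretch of chromatin and a number of DNA copies. Copy number, chromatin and promoter activity were not measured here, and their part in the values was not tested. H2A.Z is a histone that replaces H2A in nucleosomes, often those beside transcription start sites.

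The hairpin targets came first. H2AFZ was at 6389 and 6034 normalized counts in the 2 PANC-1 libraries and at 2212 and 2259 in the 2 PZT-2 libraries, a log2 fold change of -1.47 ± 0.06 (SE, adjusted p = 6.3e-05 in edgeR's quasi-likelihood test). H2AFV was at 3343 and 3452 against 2590 and 2719, a log2 fold change of -0.36 ± 0.06 (SE, adjusted p = 0.0057 in edgeR), which missed the threshold of 0.05 without PZT-2 replicate 1 (adjusted p = 0.060). Both targets were lower in both PZT-2 libraries. The libraries held 12861314 to 15717445 counts. Of 8 markers of the line all had counts, summing to 13374 and 13436 CPM (counts scaled to the library total) in the PANC-1 libraries and to 8690 and 8527 in those of PZT-2. KRT8, KRT18, KRT19 and VIM, expressed in this line, had 12304 to 115639 counts in each library and fell in PZT-2 in edgeR's test, with log2 fold changes of -1.17, -0.81, -0.73 and -0.48. The epithelial markers EPCAM (83 to 116 counts) and KRT7 (103 to 127 counts) were low and were not called. CDH1, at 103 and 164 counts in PANC-1 and 0 and 19 in PZT-2, was low and was called lower (log2 fold change -3.79, adjusted p = 0.010 in edgeR). MUC1, at 394 to 602 counts, was also called lower (log2 fold change -0.52, adjusted p = 0.023 in edgeR). Of 5 fibroblast, 5 leukocyte and 4 endothelial markers, 1, 2 and 1 had counts. COL1A1, the fibroblast marker, fell from 439 and 588 to 169 and 137 counts (log2 fold change -1.75), the leukocyte marker CD14 rose from 3 and 0 to 16 and 32 counts (adjusted p = 0.023 in edgeR), LYZ had 0 to 8 and the endothelial PECAM1 4 to 11. The part of these moves in the members' values was not tested.

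All 44 members had a positive log2 fold change of PZT-2 over PANC-1, from 0.12 to 1.67, with a median of 0.63, equal to a fold of 1.54. Over all 15100 genes tested the median was 0.00. In edgeR's test 37 members passed the threshold and were called higher, none was called lower (0 also at an unadjusted p under 0.05 and by DESeq2), and 7 were not called, beside 14.7% of all genes tested called higher and 13.7% called lower. The ranges of the cell lines did not overlap in 42 members, with PZT-2 above, beside 33.3% of all genes. The list was chosen on this contrast, so nothing is read from these counts. Nor is anything read from members called or not overlapping in the groups below. Each of the 4 pairings of a PZT-2 with a PANC-1 library gave a median over the members of 0.56 to 0.67, with 42 to 44 of the 44 members above 0. Summed over the members, the normalized counts were 45656 and 43859 in PANC-1 and 64808 and 66081 in PZT-2, so that the members took 0.316% and 0.309% of the counts of the PANC-1 libraries and 0.462% and 0.472% of those of PZT-2.

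**Figure D1:**
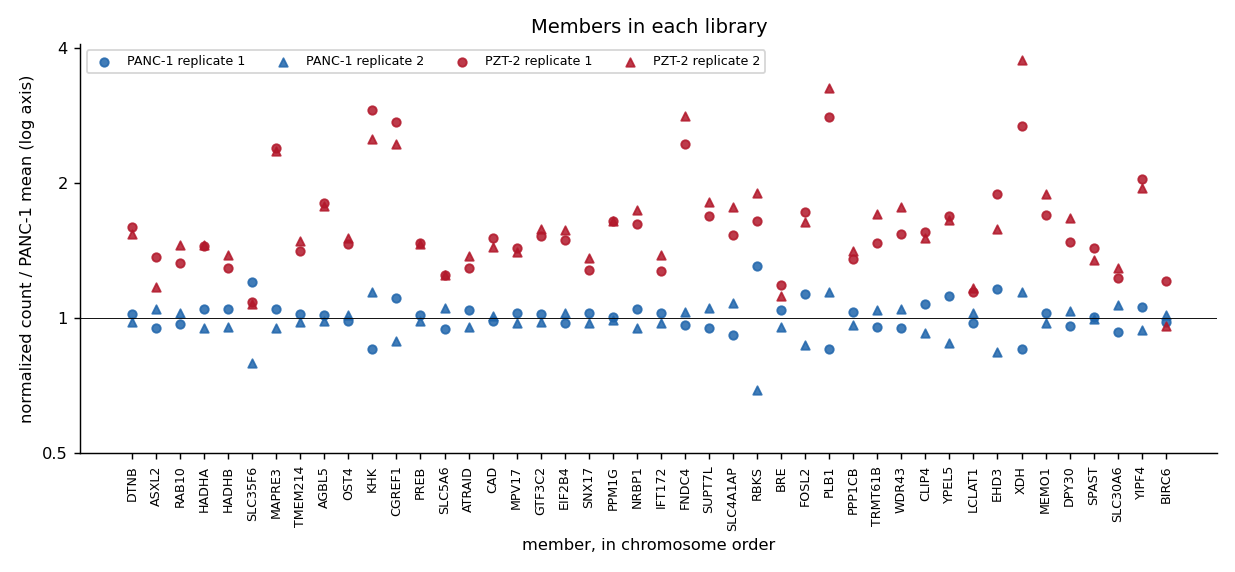
Each member's normalized count in each library divided by its mean in PANC-1 (log axis), with members in chromosome order; circles and triangles are replicates 1 and 2, blue is PANC-1 and red is PZT-2. The red points lie above both blue points in 42 members, and SLC35F6 and BIRC6 are the exceptions.

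The 44 members differ in level by orders of magnitude. Per length, as the authors' mean TPM, an abundance corrected for transcript length, the highest in PANC-1 was OST4 (469 TPM), then ATRAID (238) and HADHA (195), and the lowest were XDH (0.35) and PLB1 (0.12). The order of the levels was nearly kept in PZT-2, where OST4 stood at 698 TPM, ATRAID at 315, PPM1G at 288 and HADHA at 281. The 19 members with a mean of 1000 or more normalized counts had a median log2 fold change of 0.54 and an interquartile range of 0.18. The 19 members with 100 to 1000 counts had a median of 0.65, and the 6 members under 100 counts had a median of 1.40. Over all genes at these levels, from high to low, the medians were -0.02, 0.00 and 0.03. The interquartile ranges over all genes were 0.41, 0.49 and 0.92. The spread thus widens at low counts, and the list was chosen on this contrast, so a larger rise of low members is not read from these medians. In 33 of the 44 members the log2 fold change was between 0.3 and 0.9.

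Members encoding enzymes of mitochondrial fatty acid oxidation and a mitochondrial membrane protein came to log2 fold changes of 0.42 to 0.54. HADHA and HADHB encode the alpha and beta subunits of the mitochondrial trifunctional protein, which carries out the last steps of beta-oxidation of long-chain fatty acids, and their genes lie head to head. HADHA was at 4791 and 4343 normalized counts in PANC-1 and at 6624 and 6660 in PZT-2, with a log2 fold change of 0.54 ± 0.06 (SE). HADHB was at 2189 and 1998 in PANC-1 and at 2710 and 2891 in PZT-2, with a log2 fold change of 0.42 ± 0.07 (SE). Both subunits were higher in both PZT-2 libraries, and the groups did not overlap, beside 33.3% of all genes tested with PZT-2 above. MPV17, a protein of the inner mitochondrial membrane, had a log2 fold change of 0.51.

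In 4 cases a pair of members starts head to head, with start sites under 1000 bases apart: HADHA and HADHB (307 bases), RBKS and BRE (342 bases), SLC5A6 and ATRAID (92 bases), and SUPT7L and SLC4A1AP (275 bases). The promoter windows of the right-hand partners of all 4 pairs are shown. In the pair of RBKS and BRE neither gene was called. The windows run from 250 bases before the start to 50 bases after it, on the plus strand, and come from RefSeq on GRCh38.p14. A window is placed by the right-hand start alone. It need not lie between the starts of a pair, as SLC5A6 overlaps ATRAID and RBKS overlaps BRE. The capitals mark every match, on either strand, to the GC box GGGCGG. The same windows were searched for the CCAAT box (CCAAT), the ETS core (CCGGAAG) and the TATA box (TATAAA), which are not in them.
HADHB, chr2:26244689-26244988: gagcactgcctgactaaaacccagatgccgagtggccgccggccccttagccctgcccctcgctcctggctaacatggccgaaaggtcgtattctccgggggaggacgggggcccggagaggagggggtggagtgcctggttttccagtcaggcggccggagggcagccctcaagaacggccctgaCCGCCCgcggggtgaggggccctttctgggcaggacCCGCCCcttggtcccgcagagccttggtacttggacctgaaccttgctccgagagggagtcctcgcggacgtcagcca
ATRAID, chr2:27211791-27212090: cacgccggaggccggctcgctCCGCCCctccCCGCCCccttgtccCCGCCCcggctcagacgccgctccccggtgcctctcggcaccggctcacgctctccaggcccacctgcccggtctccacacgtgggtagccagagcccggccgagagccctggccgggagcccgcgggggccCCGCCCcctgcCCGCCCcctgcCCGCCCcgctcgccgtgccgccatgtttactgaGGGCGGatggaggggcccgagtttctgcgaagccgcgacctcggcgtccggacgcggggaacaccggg
SLC4A1AP, chr2:27663639-27663938: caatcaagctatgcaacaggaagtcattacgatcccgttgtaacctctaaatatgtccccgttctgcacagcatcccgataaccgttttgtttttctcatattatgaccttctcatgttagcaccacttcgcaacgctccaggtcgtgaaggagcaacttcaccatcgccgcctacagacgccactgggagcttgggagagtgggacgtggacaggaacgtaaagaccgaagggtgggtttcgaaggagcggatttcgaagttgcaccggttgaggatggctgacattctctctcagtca
BRE (BABAM2), chr2:27890479-27890778: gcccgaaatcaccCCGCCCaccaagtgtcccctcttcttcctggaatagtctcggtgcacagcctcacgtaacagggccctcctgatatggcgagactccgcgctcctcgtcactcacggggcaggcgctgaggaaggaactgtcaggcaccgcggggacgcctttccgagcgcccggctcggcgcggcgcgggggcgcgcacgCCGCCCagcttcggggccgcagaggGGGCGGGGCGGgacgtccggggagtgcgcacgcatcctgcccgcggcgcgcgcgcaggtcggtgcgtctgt

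These windows differ in their letters. The ATRAID and BRE windows hold several GC boxes and have 39 and 41 CpG dinucleotides, the HADHB window has 21 and the SLC4A1AP window, with none of the motifs searched, has 18. Of the 44 members, 39 have a window in the RefSeq table, and of these 26 (66.7%) hold a GC box, 13 (33.3%) a CCAAT box, 8 (20.5%) the ETS core and 0 a TATA box. Among the first windows of all 27305 genes in that table the shares were 44.6%, 35.7%, 10.7% and 12.0%, and among 15843 protein-coding genes 58.5%, 36.4%, 14.2% and 9.63%. A match is a string of letters and not a measured binding site. Within the pairs, the log2 fold changes were 0.32 for SLC5A6 and 0.42 for ATRAID, 0.81 for SUPT7L and 0.72 for SLC4A1AP, and 0.85 for RBKS and 0.21 for BRE. In the RefSeq annotation SLC5A6 overlaps ATRAID, and RBKS overlaps BRE.

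Genes grouped under metabolic and lipid enzymes include the members with the largest fold changes, all of them at low counts. CAD, which carries out the first steps of pyrimidine synthesis, had the highest counts of this group, at 3135 and 3218 normalized counts in PANC-1 and 4798 and 4584 in PZT-2, with a log2 fold change of 0.56 ± 0.05 (SE). XDH, xanthine dehydrogenase of purine breakdown, was at 13.5 and 18.1 against 42.3 and 59.3, the largest log2 fold change of the members in the main fit at 1.67 ± 0.34 (SE). From the summed counts of 32 in PANC-1 and 102 in PZT-2, the ratio for XDH was 3.17 (95% interval 2.11 to 4.88, exact and for counting error only).

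KHK, the ketohexokinase of fructose metabolism, was at 16.9 and 22.6 normalized counts in PANC-1 and at 57.4 and 49.4 in PZT-2, a ratio of 2.66 (95% interval 1.84 to 3.93). PLB1, the gene of a phospholipase, was at 3.38 and 4.52 against 11.1 and 12.9 and was not called. Its ratio was 2.99 (1.30 to 7.69) from 8 and 24 counts. The only PLB1 transcript with counts is a non-coding one in RefSeq, so these counts may not be of a phospholipase mRNA. The intervals of XDH, KHK and PLB1 hold counting error only, and with members chosen on this contrast they are no test. Both libraries of PZT-2 were above both of PANC-1 for these genes, beside 33.3% of all genes tested. XDH, KHK and PLB1 shared the lowest levels of the list with FNDC4. Their log2 fold changes on log2(TPM + 1) were 0.64, 0.90 and 0.27. At such low TPM the added 1 itself shrinks a change, so these values are no check on the rise. RBKS, which phosphorylates ribose, was at 0.85 and was not called. LCLAT1, a lysocardiolipin acyltransferase, stood at 0.21, was not called either, and gave 0.46 from its most abundant transcript alone.

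Members of the microtubule and cilium group had log2 fold changes of 0.41 to 1.25. All 6 with counts were called higher, beside 14.7% of all genes tested. AGBL5, a carboxypeptidase that removes glutamates from tubulin, was at 982 and 952 normalized counts in PANC-1 and at 1745 and 1722 in PZT-2, with a log2 fold change of 0.84 ± 0.06 (SE). AGBL5 overlaps OST4, and without a stated use of strand their reads may be split between them. DTNB, a dystrobrevin of the dystrophin complex and the first member along the chromosome, was at 370 and 354 against 578 and 558, a log2 fold change of 0.65 ± 0.08 (SE). DTNB has 10 transcripts in the table, and its most abundant one alone gave only 0.17.

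MAPRE3, a microtubule end-binding protein, had the highest log2 fold change of this group at 1.25, with 199 and 181 normalized counts in PANC-1 and 456 and 448 in PZT-2. The other members of the group were CLIP4 at 0.62, SPAST (spastin, which severs microtubules) at 0.48 and IFT172 (a subunit of the intraflagellar transport trains of cilia) at 0.41. Their PZT-2 libraries lay above their PANC-1 libraries in every case, beside 33.3% of all genes tested.

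In the membrane traffic and secretory group, all 7 members with counts were called higher, beside 14.7% of all genes tested. Their log2 fold changes were 0.40 to 1.00. RAB10, a small GTPase of vesicle transport, was at 2489 and 2636 normalized counts in PANC-1 and at 3408 and 3726 in PZT-2, with a log2 fold change of 0.48 ± 0.07 (SE). YIPF4, a Golgi membrane protein, was the highest of the group at 1.00, followed by EHD3 (endosomal recycling) at 0.80 with 42 to 94 normalized counts. OST4, the small subunit of the oligosaccharyltransferase that attaches N-glycans, had 0.57, PREB, the exchange factor that starts COPII coats, 0.55, TMEM214 0.54 and SNX17, a sorting nexin, 0.40.

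The chromatin and transcription group had log2 fold changes of 0.35 to 0.81 in its 5 members with counts. All 5 were called higher, beside 14.7% of all genes tested. GTF3C2, a subunit of the RNA polymerase III factor TFIIIC, was at 1272 and 1224 normalized counts in PANC-1 and at 1903 and 1971 in PZT-2, with a log2 fold change of 0.63 ± 0.06 (SE). SUPT7L, a subunit of the SAGA coactivator, had 0.81, FOSL2, a Fos-related AP-1 factor, 0.76, DPY30, a core subunit of the SET1/MLL methyltransferases, 0.65 and ASXL2, a cofactor of the deubiquitinase BAP1, 0.35. Each was above PANC-1 in both PZT-2 libraries, beside 33.3% of all genes tested.

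The RNA processing and translation group was called higher in all 3 members, beside 14.7% of all genes tested. WDR43, which acts in ribosome assembly in the nucleolus, was at 943 and 1041 normalized counts in PANC-1 and at 1531 and 1753 in PZT-2, with a log2 fold change of 0.73 ± 0.09 (SE). TRMT61B, a tRNA methyltransferase of mitochondria, had 0.66 and EIF2B4, a subunit of the exchange factor for eIF2, had 0.62.

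In the group of phosphatases, ubiquitin and cell death genes, 3 of 5 members were called higher, beside 14.7% of all genes tested. The log2 fold changes of the group were 0.12 to 0.75. PPM1G, a metal-dependent protein phosphatase, was at 3092 and 3046 normalized counts in PANC-1 and at 5050 and 5049 in PZT-2, with a log2 fold change of 0.72 ± 0.05 (SE). YPEL5 had 0.75 and PPP1CB, a catalytic subunit of protein phosphatase 1, had 0.47. BRE, a scaffold of BRCC36 deubiquitinase complexes, was at 725 and 663 against 823 and 776, a log2 fold change of 0.21 ± 0.08 (SE). It was not called, and its most abundant transcript alone gave -0.14.

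BIRC6, a very large ubiquitin ligase that inhibits apoptosis and the last member along the chromosome, was at 1158 and 1200 normalized counts in PANC-1 and at 1427 and 1129 in PZT-2. Its groups overlapped, its log2 fold change of 0.12 ± 0.11 (SE) was the smallest of the list, and without PZT-2 replicate 1 it was -0.06. SLC35F6, a transporter-like membrane protein, was at 1838 and 1211 in PANC-1 and at 1655 and 1639 in PZT-2, with a log2 fold change of 0.12 ± 0.18 (SE) that turned to -0.17 without PANC-1 replicate 2. The positive sign of SLC35F6, BIRC6 and BRE thus rests on the libraries or transcripts used. The other transporters, SLC30A6 for zinc and SLC5A6 for biotin and pantothenate, had 0.33 and 0.32 and were called higher.

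Among the signalling, secreted and other members, NRBP1, a pseudokinase, was at 2314 and 2103 normalized counts in PANC-1 and at 3576 and 3846 in PZT-2, with a log2 fold change of 0.75 ± 0.07 (SE). FNDC4, a secreted fibronectin-domain protein, was at 6.75 and 7.23 against 17.1 and 19.8 and was not called. Its ratio was 2.63 (95% interval 1.39 to 5.27, for counting error only) from 14 and 37 counts. CGREF1, a secreted growth regulator whose gene overlaps KHK, had a log2 fold change of 1.38, MEMO1, a mediator of cell motility, 0.85, SLC4A1AP 0.72 and ATRAID 0.42. All but FNDC4 in this group were called higher, beside 14.7% of all genes tested. In all, 14 of the 44 members overlap another protein-coding gene in the RefSeq annotation.

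The 15 other protein-coding genes with counts between DTNB and BIRC6 were not on the list. The stretch itself was picked on this contrast, and a gene that did not rise may be off the list for that reason, so nothing is read about the interval from the counts that follow. Of these, 6 were called higher, 1 lower and 8 were not called by edgeR, that is 40% higher and 6.67% lower beside 14.7% and 13.7% of all genes tested. Their median log2 fold change was 0.51.

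The 6 called higher were GAREM2 (log2 fold change 1.60), UCN, the peptide hormone urocortin (1.28), MRPL33 of the mitochondrial ribosome (0.78), GPN1, a GTPase of RNA polymerase assembly (0.65), CENPA, the histone H3 variant of centromeres (0.51), and SELENOI of phosphatidylethanolamine synthesis (0.48), with adjusted p of 3.7e-04 to 0.0075 in edgeR. CENPA was at 650 and 613 normalized counts in PANC-1 and at 866 and 926 in PZT-2. GAREM2, an adaptor of receptor tyrosine kinase signalling, was at 146 and 144 against 464 and 416. The calls of UCN and SELENOI were each lost without 1 PZT-2 library, replicate 1 for UCN (adjusted p = 0.052) and replicate 2 for SELENOI (adjusted p = 0.053).

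KCNK3, a leak potassium channel, was the exception that fell, from 106 and 93.1 normalized counts in PANC-1 to 46.3 and 49.4 in PZT-2, with a log2 fold change of -1.05 ± 0.19 (SE, adjusted p = 0.0085 in edgeR). The call was lost without either PZT-2 library, replicate 1 (adjusted p = 0.053) or replicate 2 (adjusted p = 0.052). The 8 not called were OTOF at 1.05, ABHD1 at 0.68, EMILIN1 at 0.51, ZNF513 at 0.32, C2orf16 at 0.12, KIF3C at 0.04, ZNF512 at -0.06 and CCDC121 at -0.51. KIF3C, a kinesin, is not a low gene: it was at 1277 and 1263 normalized counts in PANC-1 and at 1303 and 1308 in PZT-2. ZNF512 overlapped between the groups, and CCDC121 was lower in both PZT-2 libraries at 33 to 62 counts. Of 4 non-coding genes with counts in the interval none was called by edgeR or DESeq2 and 1 had an unadjusted p under 0.05 (median log2 fold change 0.30), all with at most 45 counts a library. FTH1P3 among them is a near-copy of FTH1, so its counts are uncertain.

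**Figure D2:**
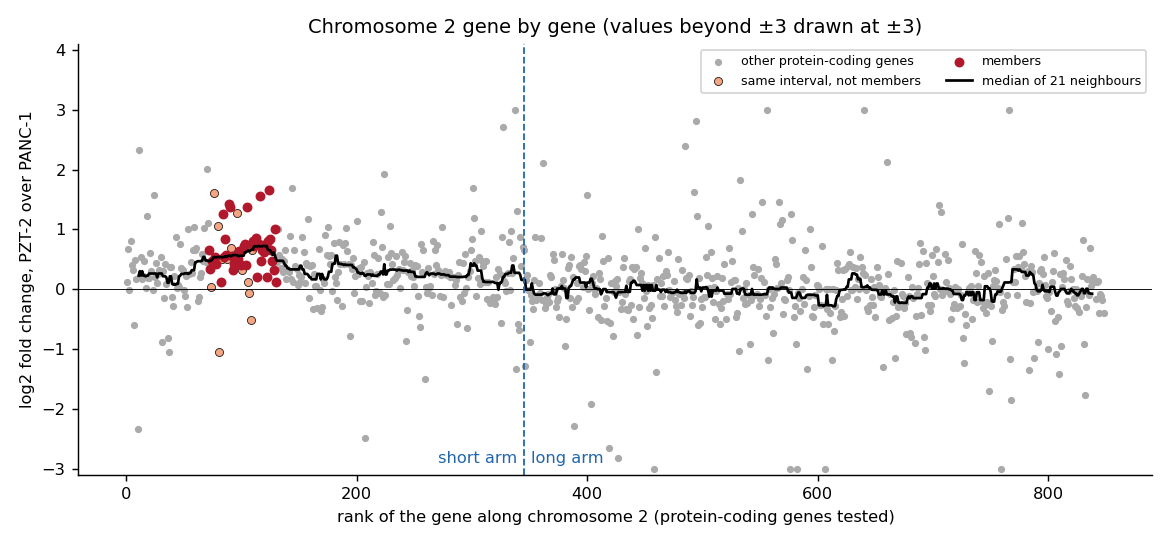
Log2 fold change of PZT-2 over PANC-1 for every protein-coding gene tested on chromosome 2, against its rank along the chromosome, with members in red, the 15 other genes of the interval in orange and the median of 21 neighbouring genes as a black line; the dashed line separates the arms. The black line reaches 0.73 at FOSL2, stays at or above -0.01 along the short arm and moves between -0.28 and 0.33 on the long arm.

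The raised values did not stop at the ends of the list. On the side of the telomere the 3 tested genes next to DTNB were DNMT3A, a de novo DNA methyltransferase, EFR3B, a plasma membrane protein, and DNAJC27, with log2 fold changes of 1.11, 2.01 and 0.45, and the first 2 of these rose (adjusted p = 9.8e-04 and 7.8e-04 in edgeR). DNMT3A was at 240 and 285 normalized counts in PANC-1 and at 569 and 570 in PZT-2. On the side of the centromere the genes next to BIRC6 were TTC27 at 0.45, LTBP1, a binding protein of latent TGF-beta, at 1.00, and FAM98A at 0.58, and all of these rose (adjusted p = 3.6e-04 to 0.015 in edgeR), TTC27 not without either PZT-2 library (adjusted p = 0.056 and 0.089). The members just inside, DTNB and ASXL2 at 0.65 and 0.35 and YIPF4 and BIRC6 at 1.00 and 0.12, ranged from 0.12 to 1.00, beside 0.45 to 2.01 in these genes just outside.

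Over the 20 tested genes next to each end, 11 were called higher on the telomeric side and 13 on the centromeric side (55.0% and 65.0%, beside 14.7% of all genes), and none lower (0 also at an unadjusted p under 0.05 and by DESeq2), with medians of 0.46 and 0.37. Over all 286 tested genes of 2p outside the interval, 119 were called higher and 10 lower, with a median of 0.28. On the long arm, 69 of 503 were called higher and 74 lower, with a median of -0.02. The median of 21 neighbouring genes was 0.47 or more throughout the interval and peaked at 0.73 around FOSL2. On the short arm it was lowest at -0.01 around USP39, and on the long arm it moved between -0.28 and 0.33, the latter around TRIP12.

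Other stretches of the genome had shifted medians too. Chromosome 3 had a median log2 fold change of 0.43 over 719 protein-coding genes. Of these, 392 (54.5%) were called higher and 20 (2.78%) lower, beside 14.7% and 13.7% of all genes tested. Chromosome 15 had a median of 0.24 over 429 genes. Chromosomes 5 and 7 were shifted down, with medians of -0.13 over 591 genes and -0.09 over 607. The median over the 12181 protein-coding genes of all chromosomes but 2 was -0.01.

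Within a cell line, the members did not differ between replicates as a block. The selection used no contrast between replicates, but it may have favoured genes whose replicates agree. The log2 difference of replicate 2 from replicate 1 had a median over the 44 members of -0.05 in PANC-1 and 0.04 in PZT-2, with 18 and 24 members higher in replicate 2. The median size of this difference was 0.13 and 0.08, beside 0.15 and 0.12 over all genes tested, which were not matched to the members for level. SLC35F6 and RBKS differed most in PANC-1, where SLC35F6 went from 1838 to 1211 and RBKS from 85.5 to 45.2 normalized counts.

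Transcript usage, the share of a gene's counts taken by each of its transcripts, was not used in the selection and was tested with edgeR's diffSpliceDGE. How precisely a share is estimated depends on the counts of the gene. Of the members, 23 had more than 1 tested transcript, and none was called, beside 0.75% of the 6930 genes tested. At an unadjusted p under 0.05 there were 3 of the 23, or 13.0%, beside 11.3% of all genes, and the smallest adjusted p of a member was 0.20, for LCLAT1. The main transcript of LCLAT1 took 70.5% and 74.0% of its counts in PANC-1 and 87.4% and 85.2% in PZT-2, the largest rise of the members. The main transcript of BRE took 29.5% and 60.8% in PANC-1 and 33.1% and 37.3% in PZT-2, so that its replicates differed more than the cell lines did. In 24 members the main transcript took over 90% in every library, 21 of these having a single transcript.

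Many members are subunits of complexes or enzymes of pathways whose other genes lie elsewhere, and 16 lists of such partners were compared. Of 139 partner genes outside 2p, 21 were called higher and 20 lower in edgeR's test (15.1% and 14.4%, beside 14.7% and 13.7% of all genes), with a median log2 fold change of -0.03. Of the 13 partners on chromosome 3, 10 were called higher and none lower (0 also at an unadjusted p under 0.05 and by DESeq2, which called 9 higher), and of the 126 others 11 were called higher and 20 lower. The 10 on chromosome 3 were SLC25A20, UMPS, EIF2B5, STT3B, RPN1, BAP1, TADA3, ATXN7, IFT57 and SEC13. Of all protein-coding genes tested on chromosome 3, 54.5% were called higher, so the rise of these partners is not read as one with their members.

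Among the 17 other genes of mitochondrial beta-oxidation, the partners of HADHA and HADHB, CPT1B (0.92) and SLC25A20 (0.70), which bring fatty acids into mitochondria, and ETFA (0.33) rose, DECR1 (-0.95), an accessory enzyme for unsaturated fatty acids, fell, and the list's median was -0.07. CPT1A, with the highest normalized counts of the list, was at 0.05. Here and in the lists that follow, highest counts are not corrected for length. Of the 7 other genes of pyrimidine synthesis beside CAD, UMPS (0.41) and TYMS (0.33) rose and none fell (4 higher and 0 lower at an unadjusted p under 0.05 in edgeR, 2 and 0 by DESeq2). Of the 10 other oligosaccharyltransferase subunits beside OST4, STT3B (0.66) and RPN1 (0.49) rose, STT3A (-0.22) and MAGT1 (-0.29) fell, and the median was -0.15. Of 12 genes of the COPII coat beside PREB, SEC23A (0.54), SEC24D (0.47), SEC13 (0.44) and SAR1A (0.29) rose and none fell in edgeR's test (2 lower at an unadjusted p under 0.05, 0 by DESeq2), and SEC16A, with the highest counts, was at -0.17.

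In the chromatin complexes no list rose as a whole. Of 12 SET1/MLL genes beside DPY30 (0.65), none rose in edgeR's test (0 also at an unadjusted p under 0.05 and by DESeq2), KMT2C (-0.44), KMT2A (-0.35) and HCFC1 (-0.25) fell, and the median was -0.06. Of 18 SAGA genes beside SUPT7L (0.81), ATXN7 (0.58) and TADA3 (0.35) rose and SGF29 (-0.84), TAF6L (-0.42) and TAF9 (-0.40) fell, with USP22, which had the highest counts, at -0.13. Of 7 genes of the BAP1 list beside ASXL2 (0.35), KDM1B (0.62) and BAP1 (0.30) rose, OGT (-0.46) and HCFC1 fell, and ASXL1, with the highest counts, was at -0.08. Of 5 TFIIIC subunits beside GTF3C2 (0.63), GTF3C3 (0.35) rose, GTF3C6 (-0.29) fell and GTF3C1 was at 0.01. Of 6 AP-1 factors beside FOSL2 (0.76), JUN (0.42) rose, JUND (-0.97) fell, and FOSL1, with the highest counts, was at 0.02.

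In translation, EIF2B5 (0.26) rose and EIF2B2 (-0.41) and EIF2B3 (-0.25) fell among 7 genes of the eIF2B and eIF2 list, where EIF2B4 stood at 0.62 and EIF2S3, with the highest counts, at 0.01. Of 6 partners of WDR43 in the small subunit processome, HEATR1 (-0.37), with the highest counts, and TBL3 (-0.24) fell. Of 16 intraflagellar transport genes, IFT20 (0.65), TRAF3IP1 (0.39) and IFT57 (0.35) rose and IFT46 (-0.85) fell, beside IFT172 at 0.41 and IFT27, with the highest counts, at 0.00. Of 5 phosphatase genes beside PPP1CB, PPP1CA (-0.40) fell. None of 7 genes of the BRCC36 list was called, SHMT2, with the highest counts, being at -0.13 (0 also at an unadjusted p under 0.05 in edgeR and by DESeq2). Of the paralogs, MAPRE2 (-0.36) fell and MAPRE1 was at 0.14 beside MAPRE3 at 1.25, and EHD1 (-0.24) fell beside EHD3 at 0.80. The values of partners named as risen or fallen are log2 fold changes of PZT-2 over PANC-1 with an adjusted p under 0.05 in edgeR, and where 41 partners were called with all libraries, 20 were called once PZT-2 replicate 1 was left out and 12 once replicate 2 was.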

How the data were processed

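RNA-seq libraries of PANC-1 and PZT-2, 2 each, were re-analysed. Per the labels the authors used Trim Galore 0.4.1 for trimming, kallisto 0.43.0 to quantify RefSeq transcripts and sleuth 0.29.0 for their tests. The deposited estimated counts carry a factor per library (1.16, 0.935, 1.03 and 1.01), which was undone before rounding and summing per gene. After this 45.2% to 46.5% of low values were whole within 0.01, against 0.81% to 2.41% before. Deposited TPM values, made by the authors per transcript, were summed per gene. The table of the authors' own fold changes and p-values was used only for symbols. Unnamed transcripts (103, 0.0466% of counts) were left out.

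Genes with at least 5 counts in 2 libraries were tested with edgeR 4.0.16 (TMM, quasi-likelihood, Benjamini-Hochberg, R 4.3.3), and calls have an adjusted p under 0.05. Normalized counts are scaled to the mean library. An exact permutation test of 2 against 2 cannot go below p = 0.333. Gene order is RefSeq's on GRCh38.p14, with the arm boundary set after RPIA. The scripts were tested on simulated data. The members, lists and role groups were chosen with earlier results of these data known. Values per library are given for the first and last member, the member with the highest mean normalized count of each group, the 3 largest and smallest changes, HADHA and HADHB, and members under 50 counts, and MAPRE3, CENPA, GAREM2, KIF3C and DNMT3A were added after their values were seen.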

Additional observations from a re-analysis of the deposited data

How the results depend on the processing

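The median log2 fold change of the members was 0.63 and stayed between 0.59 and 0.63 under RLE size factors, DESeq2, both other filters, limma-trend on log2(TPM + 1), the deposited values and the replicate block, fell to 0.56 from the most abundant transcript alone, and was 0.57 to 0.64 with 1 library left out. Members called higher numbered 37, or 34 to 38 under these settings, 22 from the most abundant transcript alone and 27 to 37 with 1 library left out. The other interval genes called higher numbered 6, or 5 to 6. Genes called in all numbered 4289, 3224 by DESeq2, 3706 with the replicate block, 2123 from the most abundant transcript alone, and 1866 to 4686 with 1 library left out. Partner genes called numbered 41, 36 with the replicate block, 20 from the most abundant transcript alone and 12 to 53 with 1 library left out. Genes with a change of transcript usage numbered 52, 25 with at least 10 counts in all libraries, 2 with the replicate block and 0 to 10 with 1 library left out. The cause of these moves was not tested, beyond fewer samples or transcripts entering the fit. The replicate numbers did not pair the libraries (r = -0.02 over 15100 genes).

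Of 526 values of single members, 508 moved by less than the replicate spread, 15 by more, and 3 changed sign. BRE was at -0.14 from the most abundant transcript alone, and with 1 library left out SLC35F6 ranged from -0.17 to 0.44 and BIRC6 from -0.063 to 0.28. Of 884 values of other named genes, 760 kept their call and sign, 109 lost the call, 2 gained it and 13 changed sign, all in genes near 0 that were not called. With 1 library left out, CPT1A ranged from -0.0039 to 0.094, EIF2S3 from -0.016 to 0.034, FOSL1 from -0.058 to 0.096, GTF3C1 from -0.0061 to 0.018, IFT27 from -0.053 to 0.054, SHMT2 from -0.30 to 0.038 and ZNF512 from -0.26 to 0.11. On log2(TPM + 1) GTF3C1 was at -0.0023 and IFT27 at -0.043, from the most abundant transcript alone GTF3C1 was at -0.013 and ZNF512 at 0.36, and with RLE size factors IFT27 was at -0.00037. With 2 libraries a group, the ratios of FNDC4 and PLB1 are the least precise.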
